A study of Mus musculus with 23 samples.

Results

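Myelin structural genes are described here in bulk brain RNA-seq as a set of 9 named genes: Mbp, Mobp, Mal, Mag, Mog, Opalin, Cldn11, Cnp and Ermn. They were taken by symbol from the gene count table, and all 9 were among the 16209 genes tested, of 22310 named genes in the table. The rule that names them is a list of symbols and sets no threshold on a measured value. The brains were from C57BL/6J mice, either WT or carrying Csf1R-G793A, a substitution in the receptor kinase CSF1R on which microglia depend. Each genotype was fed control chow, chow with PLX3397 at 290 mg/kg or chow with PLX5622 at 1200 mg/kg, both CSF1R inhibitors, for 14 days. The 6 groups were WT control (n = 3), WT PLX3397 (n = 4), WT PLX5622 (n = 4), G793A control (n = 4), G793A PLX3397 (n = 4) and G793A PLX5622 (n = 4), 23 libraries in all. The labels give no brain region, age, sex or zygosity, and nothing in them says that the libraries come from different animals; p-values thus reflect only how these libraries vary.

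Oligodendrocytes wrap axons in a compacted membrane, myelin, which makes up much of the mass of white matter. MBP holds the cytoplasmic faces of the membrane together, and MOBP and MAL are further small proteins of compact or raft-rich myelin. MAG lies on the innermost membrane facing the axon, MOG on the outermost surface, and OPALIN is a glycoprotein of mature oligodendrocytes. CLDN11 forms the tight junctions between myelin layers, CNP keeps cytoplasmic channels open within the sheath, and ERMN is a cytoskeletal protein of late-stage oligodendrocytes. Transcript levels of these genes in a piece of brain depend on how much white matter the piece holds. In bulk tissue, fewer oligodendrocytes and less RNA per oligodendrocyte cannot be told apart.

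None of the 9 genes passed the test in any comparison between groups (edgeR quasi-likelihood test; threshold 0.05 on p-values adjusted by Benjamini-Hochberg across the 16209 genes). Libraries of one group also differed. A myelin score, the mean over the 9 genes of log2 CPM (counts-per-million, TMM-scaled) centred on each gene's mean, had a within-group SD of 0.153 and an SD of group means of 0.0626, both on the log2 scale. Groups of this size with that within-group SD and no group difference would give an SD of means of about 0.0785. Opalin and Ermn were the members that varied least like the others.

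Some of the genes can be shown with the sequence ahead of their start, since these are the members whose windows hold a motif of a factor that acts in oligodendrocytes. MYRF, the myelin regulatory factor, was searched as CTGGCAC or CTGGTAC, SOX factors such as SOX10 as ACAAAG, and the E-box that OLIG2 and related factors bind as CAGATG or CAGCTG, each on both strands. The windows are the 250 bases before the RefSeq start, on build GRCm38.p6, which is not the build of the counts, and 8 of the 9 genes matched an entry in the table (Mbp did not). Mog is at chr17:37023399-37023648 (minus strand), Mag at chr7:30914923-30915172 (minus), Cnp at chr11:100574689-100574903 (plus), Mobp at chr9:120149492-120149706 (plus) and Opalin at chr19:41077114-41077363 (minus). Mag has 3 windows, and the most upstream one is shown, to leave out transcribed bases; its start was not found in the transcript annotation used, whereas those of the other 2 were. The Mobp and Cnp windows are shown only as far as their first base inside an annotated transcript, 215 bases each. Each reads 5′ to 3′ on the gene's strand, and capitals mark motif matches, written as their reverse complement where the match is on the other strand.
Mog: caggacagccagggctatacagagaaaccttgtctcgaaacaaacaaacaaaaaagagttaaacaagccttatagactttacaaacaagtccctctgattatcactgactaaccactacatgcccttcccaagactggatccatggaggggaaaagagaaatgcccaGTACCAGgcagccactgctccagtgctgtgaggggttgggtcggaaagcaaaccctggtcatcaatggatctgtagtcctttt
Mag: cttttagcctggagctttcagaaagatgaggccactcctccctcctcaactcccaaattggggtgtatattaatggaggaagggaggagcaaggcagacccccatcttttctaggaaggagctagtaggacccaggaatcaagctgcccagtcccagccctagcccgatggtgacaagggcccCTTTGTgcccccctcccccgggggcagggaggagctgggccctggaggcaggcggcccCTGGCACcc
Cnp: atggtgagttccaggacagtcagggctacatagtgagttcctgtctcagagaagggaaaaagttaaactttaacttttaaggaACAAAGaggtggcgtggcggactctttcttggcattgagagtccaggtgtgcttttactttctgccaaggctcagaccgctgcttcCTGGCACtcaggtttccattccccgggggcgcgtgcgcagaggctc
Mobp: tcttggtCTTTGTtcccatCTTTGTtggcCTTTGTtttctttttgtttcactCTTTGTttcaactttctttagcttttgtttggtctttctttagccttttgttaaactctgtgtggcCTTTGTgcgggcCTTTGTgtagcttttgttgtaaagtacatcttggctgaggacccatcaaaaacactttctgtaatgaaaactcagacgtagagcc
Opalin: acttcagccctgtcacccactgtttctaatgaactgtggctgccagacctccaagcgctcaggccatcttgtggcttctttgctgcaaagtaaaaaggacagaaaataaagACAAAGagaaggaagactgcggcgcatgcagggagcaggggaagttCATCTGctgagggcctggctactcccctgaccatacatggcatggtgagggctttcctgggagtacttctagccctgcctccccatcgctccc

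A MYRF match lay in the windows of Mog (83 bases ahead of the start), Mag (9 bases in the window shown, 68 bases in the next, none in the third) and Cnp (81 bases), whereas 5.93% of all 32851 windows of that length hold one. SOX matches lay in the windows of Mag (again in 2 of the 3), Cnp and Opalin, 1 each, and Mobp, which has 6 of them in a stretch rich in T. Of all windows, 16.5% hold a SOX match. The E-box match was in Opalin, and 25.5% of all windows hold one. The windows of Cldn11, Mal and Ermn held none of these letters. No match overlapped another. These are descriptions of letters, and no binding was measured.

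Mbp was the most abundant member at 1840 ± 236 CPM (mean ± SD over 23 libraries), followed by Cnp, which ranged from 380 to 588 CPM, and Opalin was the lowest at 31.2 ± 3.04 CPM. Per kilobase of median annotated transcript length, the mean levels in CPM per kb ran from Mbp (1020) through Cnp (221), Mobp (198), Mal (195), Mag (124), Cldn11 (101), Mog (76.6) and Ermn (26.8) to Opalin (13.5). Cnp, Mobp and Mal are close neighbours in that order, and Mobp ranged 2.31-fold between libraries, so their order is not firm. The 20 other mature oligodendrocyte genes of a list all passed the filter on low counts, which is no check of the tissue label. Their summed level ran from 1680 to 2190 CPM over the libraries.

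**Figure D1:**
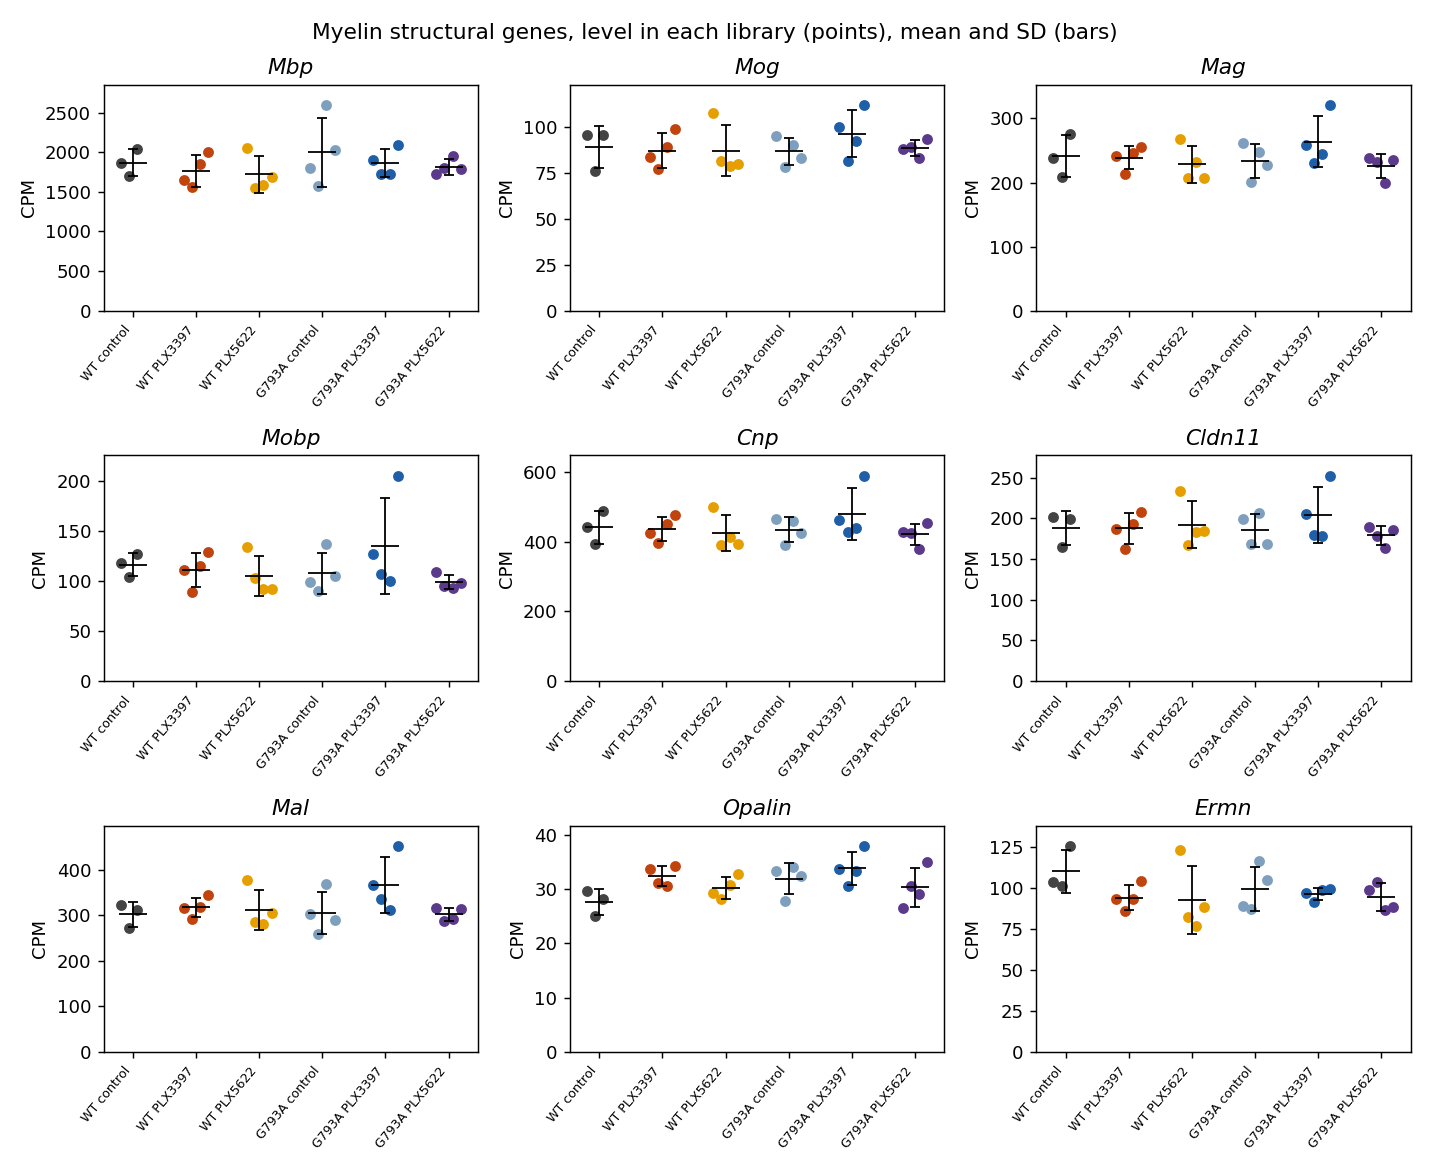
Level of each myelin structural gene in CPM (vertical axes, starting at 0) in each library (points) of the 6 groups, with the group mean and SD (bars). Groups overlap in nearly every panel, and replicate 4 of G793A PLX3397 is the highest library for 7 of the 9 genes, with Mobp at 205.5 CPM there.

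Several libraries stood apart before any comparison was made. Total counts ran from 26.3 to 48.2 M (mega-counts) per library. Replicate 1 of WT PLX5622 had the pituitary hormone transcript Prl at 66.1 CPM, a summed pituitary list of 103 CPM against 2.28 to 13.8 CPM in the other libraries, the cerebellar granule cell gene Cbln3 at 30.8 CPM, and the highest hindbrain list sum, 25.7 CPM. Replicate 2 of G793A PLX5622 had Cbln3 at 221 CPM and a hindbrain sum of 17 CPM. The hindbrain sum was also high in replicate 3 of WT control (19 CPM) and replicate 1 of G793A PLX3397 (9.06 CPM), against 0.504 to 4.49 CPM in the rest. Csf1r, the gene that carries the substitution, stood at 93.8 ± 1.23 CPM in WT control (n = 3), 23.3 ± 5.12 in WT PLX3397, 12.2 ± 4.56 in WT PLX5622, and 81.4 ± 4.69, 74.4 ± 4.24 and 71.6 ± 8.59 CPM in G793A control, PLX3397 and PLX5622 (n = 4 each). Its count does not read the substitution.

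In WT mice on PLX3397, Mbp, the compact myelin member with most RNA, stood at 1644, 1556, 1849 and 1999 CPM in the 4 libraries, against 1864, 1705 and 2042 CPM in WT control. The groups overlapped, and the log2 fold change was -0.09 ± 0.13 (SE; adjusted p = 0.926). None of the 9 members was called, where 1.52% of all genes were. Their median log2 fold change was -0.01, beside 0.01 over all genes tested, with 2 above 0 and 7 below. Opalin and Ermn lay farthest from 0, on opposite sides. Opalin stood at 33.6, 31.1, 30.6 and 34.2 CPM with PLX3397 and at 29.7, 25.0 and 28.2 CPM in WT control, so that all 4 libraries lay above the 3 controls. Its log2 fold change was 0.23 ± 0.09, with a 95% interval of 0.04 to 0.41, and it did not pass over all genes (adjusted p = 0.441; two-sided exact permutation test p = 0.0286, the smallest that 3 against 4 allows, and 0.9 adjusted over the 63 such tests run). Ermn lay at -0.23 ± 0.13 (adjusted p = 0.7), and at -0.12 without replicate 3 of WT control.

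In WT mice on PLX5622 again 0 of 9 members were called, where 1.66% of all genes were, and their median log2 fold change was -0.05 (0.01 over all genes). Ermn stood at 123.3, 82.0, 76.8 and 88.2 CPM, against 103.8, 101.1 and 125.3 CPM in WT control. Replicate 1 alone lay among the controls, and the other 3 libraries lay below all of them. The log2 fold change of Ermn was -0.25 ± 0.13 (adjusted p = 0.644). Replicate 1 is the library with pituitary, cerebellar and hindbrain transcripts, and without it the value was -0.42 and passed (adjusted p = 0.0312, where 1.72% of all genes tested passed). Without replicate 3 of WT control it was -0.15. The 2 highest Ermn libraries of this comparison, at 123.3 and 125.3 CPM, are those with the high hindbrain sums. Without the 4 libraries with high hindbrain sums, which include these 2, no member was called. The part that region content plays in the Ermn value was not tested. Mbp at -0.12 ± 0.13, Mobp at -0.14 ± 0.20 and Mog at -0.03 ± 0.11 had adjusted p-values of 0.917, 0.95 and 0.985. The doses of the inhibitors differ, so their values stand side by side without a test between them. All comparisons with WT control share its 3 libraries.

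Between control groups, G793A against WT, 0 of 9 members and 0% of all genes were called by edgeR. DESeq2 and limma-voom called 0 genes as well. Without replicate 2 of G793A control, edgeR called 375 genes and 0 members. At an unadjusted p under 0.05 there were 1803 genes (11.1%), among them 1 member, Opalin. Opalin stood at 33.3, 27.8, 34.2 and 32.4 CPM in G793A control, with 1 library within the WT range, at a log2 fold change of 0.20 ± 0.09 (adjusted p = 0.404). Mbp had its highest library here: it stood at 1801, 1569, 2591 and 2034 CPM, a spread of 438 CPM (SD) around a mean of 2000. Its log2 fold change against WT control was 0.10 ± 0.13 (adjusted p = 0.825), and -0.05 without the library at 2591 CPM. The other 7 members lay between -0.15 (Ermn; -0.05 without replicate 3 of WT control) and 0.01 (Mal).

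**Figure D2:**
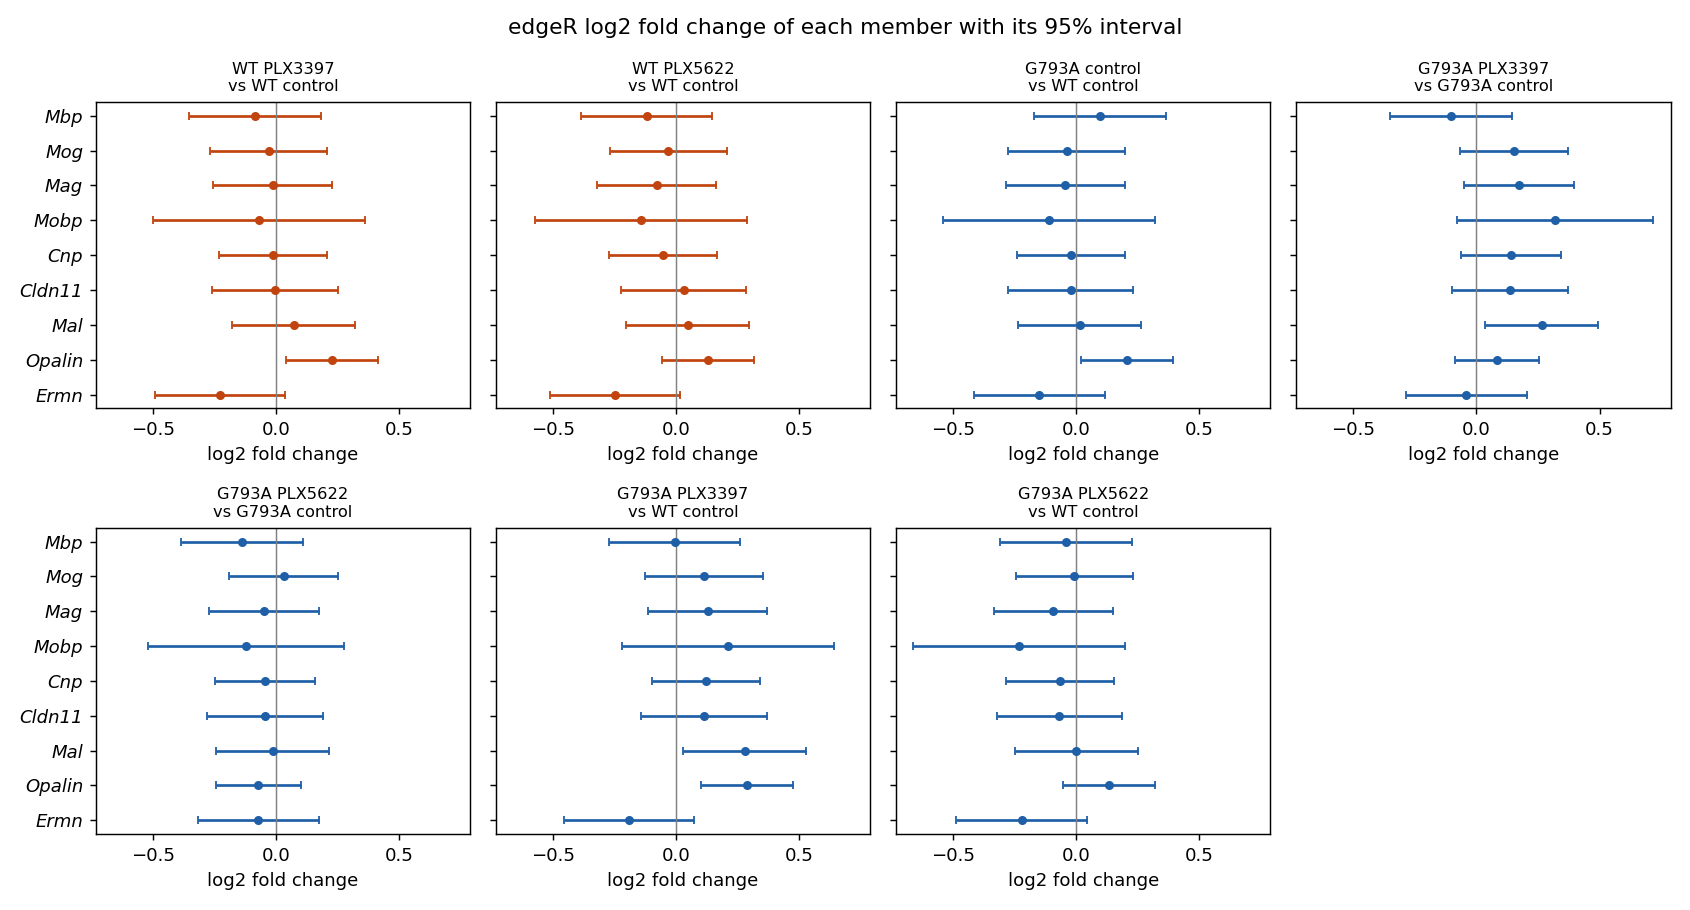
Log2 fold change (horizontal axes) of each gene (rows) from edgeR with its 95% interval, in 7 comparisons between groups. Point values run from -0.25 to 0.32, and no member passed the adjusted threshold in any panel.

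Within G793A mice, PLX3397 gave the largest point value of the pairwise comparisons, that of Mobp, and 1 library carried much of it. Mobp stood at 127.3, 107.5, 100.7 and 205.5 CPM, against 99.0, 90.8, 137.5 and 105.3 CPM in G793A control. Replicate 4, at 205.5 CPM, lay far above the others, which overlapped with the controls. The log2 fold change was 0.32 ± 0.19 (adjusted p = 0.515) and fell to 0.05 without that library. Mal stood at 366, 334, 311 and 451 CPM against 302, 258, 368 and 289 CPM, a log2 fold change of 0.26 ± 0.11 (adjusted p = 0.391), and of 0.15 without replicate 4. In all, 0 of 9 members and 0.00617% of all genes (1 gene) were called, and the members' median was 0.14, with 7 above 0 and 2 below, beside 0.00 over all genes. The total count of replicate 4 was the lowest of all, 26.3 M. Its hindbrain sum was 1.56 CPM and its pituitary sum 2.86 CPM, both within the range of the other libraries.

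With PLX5622 in G793A mice, 0 of 9 members and 0% of all genes were called by edgeR against G793A control. At an unadjusted p under 0.05 there were 2639 genes (16.3%) and no member, DESeq2 called 215 genes and no member, and edgeR without replicate 2 of G793A control called 980 genes and no member. The log2 fold changes ran from -0.14 (Mbp) to 0.03 (Mog), with a median of -0.05. The SD of the myelin score was smallest in this group, 0.0576 (n = 4), where Mobp stood at 109.3, 95.6, 93.6 and 98.2 CPM and Mbp at 1721, 1797, 1953 and 1788 CPM.

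The study's comparison of whether the substitution prevents inhibitor effects set the G793A inhibitor groups against WT control. For PLX3397, 0 of 9 members and 0.00617% of all genes were called. Opalin stood at 33.7, 30.5, 33.3 and 37.9 CPM, above the 3 WT control libraries without overlap, at a log2 fold change of 0.29 ± 0.09 (adjusted p = 0.48). Ermn stood at 96.9, 91.2, 98.6 and 99.2 CPM, below all 3 controls, at -0.19 ± 0.13 (adjusted p = 0.79), and at -0.09 without replicate 3 of WT control. Mal was at 0.28 ± 0.12 (adjusted p = 0.631), with overlap. For PLX5622, 0 of 9 members and 0% of all genes passed, 1095 genes (6.76%) and no member were under an unadjusted p of 0.05, and DESeq2 called 8 genes and no member.

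The difference between genotypes in each inhibitor's effect was tested as an interaction. For PLX3397, 0 of 9 members passed, where 0.555% of all genes did, and the largest member value was Mobp at 0.39 ± 0.28, which fell to 0.12 without replicate 4 of G793A PLX3397. For PLX5622, 0 of 9 members passed, where 0.808% of all genes did, and Opalin lay farthest from 0 at -0.20 ± 0.12 (adjusted p = 0.707). A test for any difference among the 6 groups called 0 of 9 members and 1.81% of all genes; the lowest member p was that of Opalin (0.0612, adjusted 0.325). Of the 81 values for members over the 9 comparisons with a fold change, 5 (6.17%) were under an unadjusted p of 0.05, 3 of them Opalin and 2 Mal, beside 9.04% of the values of all genes in the same comparisons. Across the 7 pairwise comparisons, 95% intervals of members other than Mobp lay within -0.51 to 0.53, and those of Mobp within -0.66 to 0.72. These are the outermost bounds over the comparisons, not a limit for each gene. The 5 values under an unadjusted p of 0.05 have intervals that leave out 0. One is Opalin in G793A PLX3397 against WT control (0.10 to 0.48), and none of the 5 passed after adjustment. For the other values, changes within a member's own interval are not distinguished from none.

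Other genes of the lineage, on lists chosen with earlier results known, are given for context. Of 20 other mature oligodendrocyte genes and 7 genes of myelin lipid synthesis, 0 were called in each comparison. Of 9 oligodendrocyte transcription factors, 1 was called: Nkx6-2, a homeodomain factor of the myelinating stage, rose in WT PLX5622 (log2 fold change 0.97 ± 0.22, adjusted p = 0.0175), from 2.2 ± 0.875 CPM (n = 3) in WT control to 4.32 ± 0.455 CPM (n = 4). Its mean was above WT control in each other group too, without a call. It was 3.1 CPM in WT PLX3397, and 3.51, 3.29 and 3.53 CPM in G793A control, PLX3397 and PLX5622. Of 12 oligodendrocyte precursor genes, Pdgfra, the receptor for the precursors' mitogen, fell in G793A PLX3397, from 66.3 ± 2.83 to 45.7 ± 6.66 CPM (n = 4 each). Its log2 fold change was -0.54 ± 0.08 (adjusted p = 0.00678 against G793A control and 0.0154 against WT control). It was the 1 gene called in each of these comparisons (0.00617% of all genes). Against G793A control, limma on variance-stabilised values and the compared groups only called no gene. Against WT control, the replicate block, the compared groups only and leaving out the libraries with high hindbrain sums called none. Matn4 (-0.51, adjusted p = 0.034) and Olfml3 (-1.58), which microglia also express, fell in WT PLX3397, and Olfml3 (-1.68) fell in WT PLX5622. Pdgfra and Matn4 also stood lower with PLX3397 in the other genotype, without being called there. Pdgfra was at 54.1 ± 3.18 CPM in WT PLX3397 against 66.7 ± 2.97 CPM in WT control. Matn4 was at 5.13 ± 0.712 CPM in G793A PLX3397 against 7.92 ± 0.949 CPM in G793A control. Neither was called in the PLX3397 interaction. The myelin members were not called in those comparisons. The homeostatic microglia list, summed over 10 genes, was 375 to 399 CPM in WT control, 92.7 to 130 CPM in WT PLX3397 and 52.3 to 95.9 CPM in WT PLX5622. All 10 genes had log2 fold changes below 0 against WT control in each of the WT inhibitor groups, and 9 were called. Of all genes, 1.52% were called with PLX3397 and 1.66% with PLX5622. Hoxc4, a hindbrain and spinal cord gene, fell in WT PLX3397 (-2.14, adjusted p = 0.0491), beside the hindbrain transcripts in replicate 3 of WT control given above.

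The myelin score ran from -0.206 in replicate 2 of G793A control to 0.394 in replicate 4 of G793A PLX3397, a 1.52-fold range. In WT control the 3 libraries had scores of 0.0479, -0.154 and 0.127. In WT PLX5622 replicate 1 was at 0.216 and the other 3 between -0.168 and -0.11. Leaving out any 1 library gave a within-group SD of the score from 0.136 (without replicate 4 of G793A PLX3397) to 0.16.

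Gene by gene, the within-group SD of log2 CPM was 0.273 for Mobp, 0.183 for Mbp, 0.18 for Ermn, 0.174 for Cldn11, 0.17 for Mal, 0.166 for Mag, 0.163 for Mog, 0.149 for Cnp and 0.125 for Opalin. The median over the 11598 genes at 5 CPM or more was 0.104. Mobp was at the 96.8th percentile of those genes and Opalin at the 65.4th, with the other 7 between the 78.8th and 89th. Counting error is small beside this spread. For the library with fewest counts it gives a coefficient of variation of 0.469% for Mbp and 3.48% for Opalin, against 13.4% and 8.62% between libraries.

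The members varied together from library to library. With log2 CPM centred on group means, Pearson's r over the 23 libraries ran from 0.165 to 0.969 over the 36 pairs, with a median of 0.726. Mag and Cnp had the highest, and the 7 members other than Opalin and Ermn, chosen after their values were seen, had 0.609 to 0.969 among themselves (median 0.852). The median r of Opalin with the others was 0.51, that of Ermn 0.625, and Opalin with Ermn had 0.165. Without the 2 libraries farthest from their group means (replicate 4 of G793A PLX3397 and replicate 1 of WT PLX5622) the range was 0.26 to 0.959 and the median 0.663. All points share a library and its scaling, so these are descriptions.

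**Figure D3:**
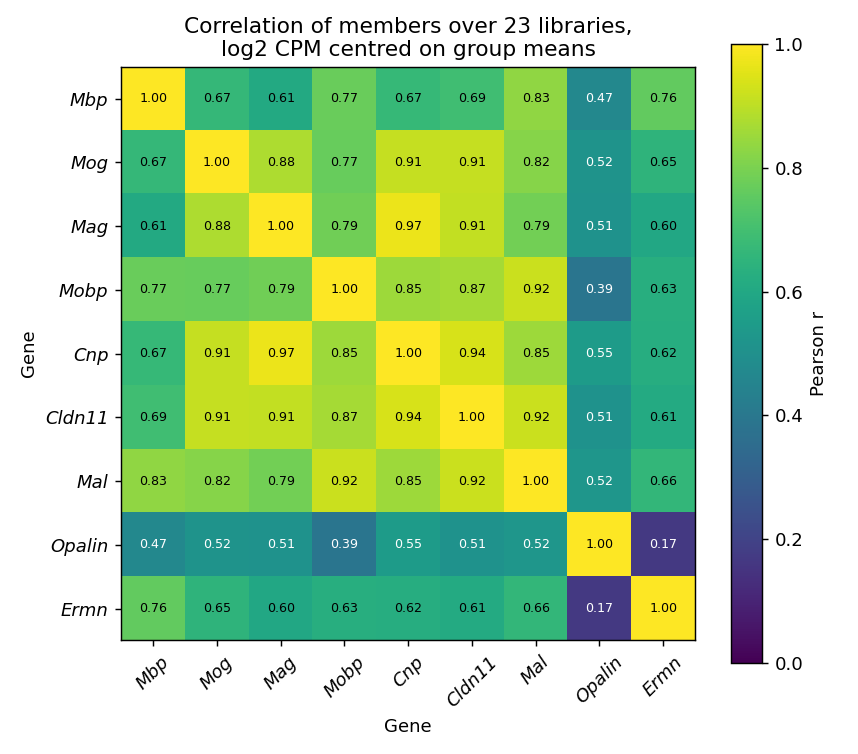
Pearson r between each pair of members over 23 libraries, from log2 CPM centred on group means (colour scale 0 to 1, value in each cell). Opalin and Ermn have the lowest values, down to 0.17 with each other, while Mag, Cnp and Cldn11 are at 0.91 or above among themselves.

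Scores of other lists were set against the myelin score in the same way. The score of the 20 other mature oligodendrocyte genes had r = 0.919 with the myelin score (Spearman's rho 0.914, and r = 0.939 without the 2 libraries), and the 7 lipid synthesis genes had r = 0.88. Oligodendrocyte transcription factors had 0.678, committed precursors 0.261 and precursors -0.208. Among region lists, cortex and hippocampus had -0.361 (-0.591 without the 2 libraries), thalamus 0.373, hindbrain 0.45 and pituitary 0.504. Others were lower: striatum 0.0328, hypothalamus 0.0104, cerebellum 0.206 and choroid plexus 0.245. Axonal neurofilament genes had 0.494 (0.267 without the 2 libraries). The homeostatic microglia list had 0.0803. Log2 total count had -0.391, and neurons -0.314. White matter content itself was not measured, and its part in the spread was not tested.

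**Figure D4:**
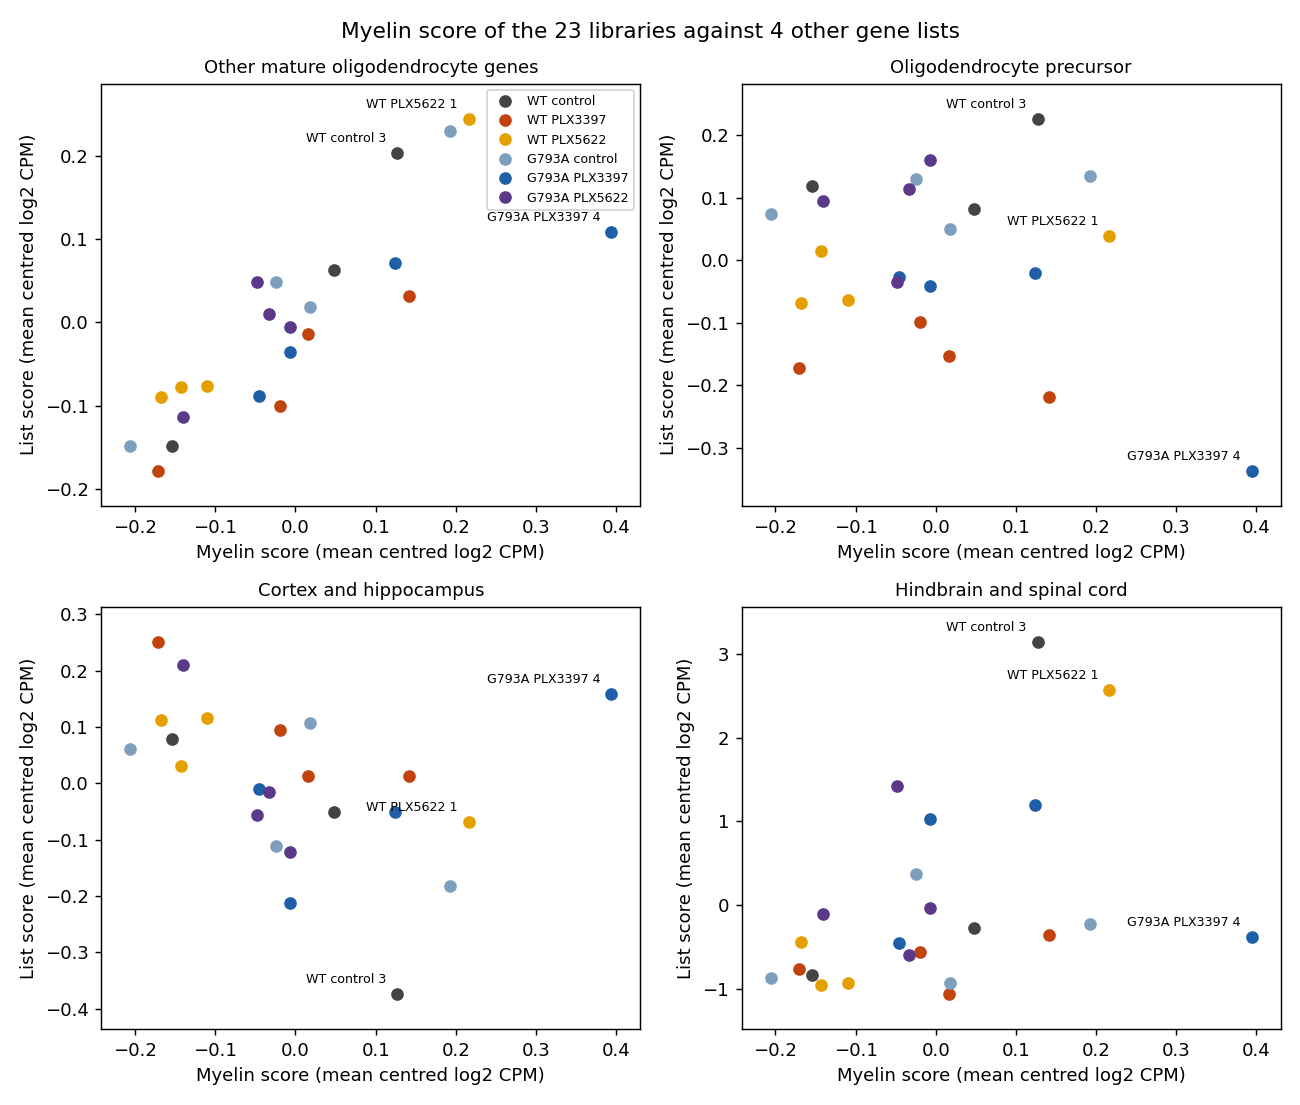
Myelin score of each library (horizontal axes, mean centred log2 CPM) against the score of 4 other lists (vertical axes, same unit), coloured by group; values are not centred on group means here. Other mature oligodendrocyte genes rise with the myelin score, whereas replicate 4 of G793A PLX3397, at a myelin score of 0.394, is at 0.108 on that list and lowest on the precursor list (-0.337).

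Over 11589 genes at 5 CPM or more, those most like the myelin score included Emilin2 (r = 0.91), Trf, the iron carrier transferrin, which oligodendrocytes make (0.907), Tspan2, a tetraspanin of oligodendrocytes (0.904), and Tmbim1 (0.884). Those with the most negative r included Zranb3 (-0.829), Slc39a10 (-0.759), Il17rd (-0.758) and Unc5d (-0.749). In all, 31 genes had r of 0.8 or more and 22 had -0.7 or less.

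Set against the mean of the other 8 members in the same library, Opalin lay above WT control on average in each other group and Ermn below. This contrast was chosen after the values were seen and has no test. On average, relative Mal also lay above WT control in each other group, from 0.0207 in G793A control to 0.18 in G793A PLX3397. Relative Mal (0.18 ± 0.0731, SD) and relative Mbp (-0.132 ± 0.0799) in G793A PLX3397 did not overlap with WT control. Nor did relative Mobp in G793A PLX5622 (-0.188 ± 0.0952). With the WT control mean at 0, relative Opalin was 0.244 ± 0.0741 (SD) in G793A control, 0.275 ± 0.116 in WT PLX3397, 0.203 ± 0.101 in G793A PLX3397, 0.212 ± 0.247 in WT PLX5622 and 0.218 ± 0.173 in G793A PLX5622, on the log2 scale (n = 4 each). The 3 WT control libraries were between -0.0994 and 0.0752, and the lowest libraries of WT PLX5622 (-0.141) and G793A PLX5622 (-0.0137) overlapped with them or lay below. Relative Ermn was -0.234 ± 0.0316 in WT PLX3397 and -0.33 ± 0.192 in G793A PLX3397, and the 4 libraries of each lay below WT control (-0.134 to 0.0826). Its mean was -0.236, -0.157 and -0.175 in WT PLX5622, G793A control and G793A PLX5622, which overlapped with WT control. The difference in all 5 groups has the same 3 WT control libraries as its reference. An edgeR fit took the score of the other mature oligodendrocyte genes as a covariate, an alternative added after the data were seen. It called 0 members (lowest adjusted p = 0.163). Of 81 member values, 19 (23.5%) were under an unadjusted p of 0.05, beside 9.17% of the values of all genes in that fit. The covariate had r = 0.919 with the myelin score, so it takes up library spread that the members share. These shares are therefore not like for like, and no conclusion is drawn from them.

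**Figure D5:**
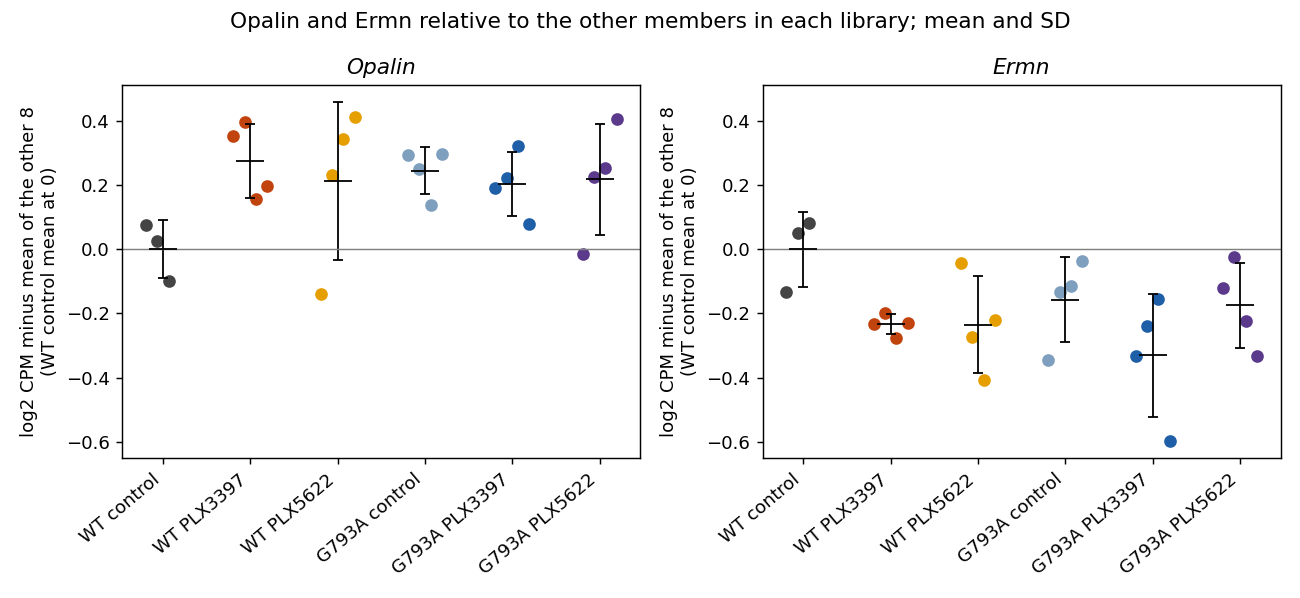
Log2 CPM of Opalin (left) and Ermn (right) minus the mean of the other 8 members in each library (points), with the WT control mean at 0 and the group mean and SD as bars. Group means of Opalin lie between 0.203 and 0.275 outside WT control, and those of Ermn between -0.33 and -0.157.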

How the data were processed

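Brain RNA was sequenced from oligo-dT stranded mRNA libraries, per the labels' protocols. Build GRCm39 is named in the submitters' processing notes, with kallisto 0.46.1, FastQC 0.11.9 and DESeq2 1.26.0. How transcripts were summed to genes was not given in the sources used. The authors deposited estimated counts per gene symbol, made with kallisto per the submitters' processing notes and not scaled; 45.3% are not whole. Their log2-scale variance-stabilised values, also deposited by the authors, served only as an alternative.

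Counts were rounded. An entry with a blank name (at most 0.0151% of a library) was left out. The main test was edgeR 4.0.16 (R 4.3.3), TMM, filterByExpr (minimum count 10, minimum total 15), and 1 robust quasi-likelihood fit of all 23 libraries with a term per group (17 residual degrees of freedom). Every adjusted p is from edgeR, over 16209 genes, unless another tool, test or setting is named. Fits that leave out libraries filtered genes anew, which gave 16176 genes without replicate 1 of WT PLX5622. The standard error is the log2 fold change divided by the root of F. Log2 CPM used a prior count of 2. Exact permutation tests were two-sided. Total counts were 26.3 to 48.2 M; counting intervals were not used. Replicates differed beyond counting noise (chi-square per degree of freedom 5.93 to 74.4). The edgeR script was tested on simulated data. Alternatives were RLE scaling, other filters, DESeq2 1.42.0, limma 3.58.1, no robust dispersion, a replicate block, a length and GC trend, the compared groups only, and leaving out libraries.

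The members, lists and rules were chosen with earlier results of these data known. The rule for named genes is all 9 members, members of other lists past the threshold, and, by Pearson's r with the centred score, the 5 genes highest and the 5 lowest at 5 CPM or more; 2 genes that it names are not reported here. Transcript lengths are GENCODE's and windows RefSeq's, both on GRCm38.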

Additional observations from a re-analysis of the deposited data

Results flagged for a closer look

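In groups of 4, a library was singled out where its gap to the nearest other, as a share of the group's range, was above Dixon's 95% critical value. Of 50 groups of values checked, 3 met this, and chance gives about 1 in 20. Mog in replicate 1 of WT PLX5622 stood at 108 CPM, with the next library at 81.6 CPM. The myelin score of the same library was 0.216, with the next at -0.11; its pituitary list sum was 103 CPM, and the part of that in the score was not tested. Mag in replicate 3 of G793A PLX5622 stood at 199 CPM, with the nearest library at 232 CPM.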

How the results depend on the processing

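No member was called under RLE scaling, no filter, a mean of 1 CPM filter, a fit that was not robust, DESeq2, limma-voom, limma on variance-stabilised values, the replicate block, the length and GC trend, the compared groups only, the covariate fit, or without the 1 library with cerebellum markers or the 4 with hindbrain markers. The exception was Ermn in WT PLX5622 against WT control. Without the 2 libraries with high Cbln3, 1 member was called (-0.42, adjusted p = 0.0265), and leaving out single libraries gave 0 to 1. The share of all genes called without both libraries is not given here. Without replicate 1 of WT PLX5622 alone, which is 1 of the 2, it was 1.72%. The covariate, Cbln3 and hindbrain alternatives were chosen after seeing the data. Uncalled values changed sign in up to 19 of 81 (without replicate 3 of WT control, and without the 4 hindbrain libraries). The within-group SD of the myelin score ran from 0.14 to 0.16 over 7 other settings and from 0.136 to 0.16 leaving out each library. Counts of all genes called moved more. In G793A control against WT control, leaving out single libraries gave 0 to 375 (without replicate 2 of G793A control). For G793A PLX3397 against G793A control (1 gene), DESeq2 gave 18, limma on variance-stabilised values 0, the compared groups only 0, and leaving out single libraries 0 to 23. For G793A PLX5622 against G793A control, DESeq2 gave 215 and leaving out single libraries 0 to 980. For G793A PLX3397 against WT control (1 gene), RLE scaling, no filter, the mean of 1 CPM filter, variance-stabilised values and the length and GC trend gave 2 each, limma-voom 3, DESeq2 26, the replicate block, the compared groups only and leaving out the hindbrain libraries 0 each, and leaving out single libraries 0 to 4. For G793A PLX5622 against WT control, DESeq2 gave 8, limma-voom and variance-stabilised values 1 each, the compared groups only 3, and leaving out single libraries 0 to 1. The PLX3397 interaction had 58 on variance-stabilised values against 90, and the test among 6 groups 839 with DESeq2 against 293, and 254 to 1011 leaving out single libraries (the highest without replicate 2 of G793A control). The causes were not tested. Residual correlations between libraries of different groups had a median of -0.00554 over 55 same-numbered pairs and 0.00556 over 165 others. The replicate block changed no call of a member. A median near 0 cannot exclude that some libraries are paired or share a batch. At these depths counting error is below the spread between libraries for each member.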
